A study of Mus musculus with 14 samples.

Results

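The 67 genes described here encode guidance molecules of 4 signalling systems, measured by RNA-seq in pancreatic islets of newborn mice. They were chosen by symbol alone, as every row of the gene count table named Efna or Efnb, Epha or Ephb, Slit or Robo, Sema3 to Sema7, Plxn, Nrp, Ntn or Unc5 with a letter or number. They are 67 of 54532 genes in the table, of which 38028 had at least 1 count and 18732 had enough counts to be tested. In all, 66 of the 67 were tested, and the exception was Ntn5. Islets were isolated at postnatal day 0 (P0) from wild-type C57BL/6JRj mice, and each biological sample pooled the islets of several pups of either sex. They were cultured in medium with 11 mmol/l glucose and received either the solvent DMSO or adjudin at 10 µmol/l, in both cases for 1 day. Adjudin is a small molecule first studied as a male contraceptive in the testis. There were 7 libraries per treatment, and libraries with the same replicate number came from 1 batch, so they form 7 pairs. The comparison asks which guidance genes differed in P0 islets after adjudin.

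Ephrins are ligands held on the cell surface that bind Eph receptor tyrosine kinases on a neighbouring cell, and both cells can receive a signal. Slit proteins are secreted and bind Robo receptors, semaphorins bind plexins, with neuropilins as co-receptors for most secreted class 3 semaphorins, and netrins bind Dcc, neogenin and Unc5 receptors. All of these systems were first studied in growing axons and also guide blood vessels. In the mouse pancreas, EphA receptors and ephrin-A ligands pass signals between touching beta cells, Robo1 and Robo2 are needed for the normal arrangement of islet cells, and Sema3a with Nrp2 directs the movement of newly formed islet cells.

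Total counts were 26475749 to 36900026 in 13 libraries and 108865228 in DMSO replicate 7, so 1 count was worth between 0.0376 and 0.00966 CPM, the unit in which a count is scaled to the library total. Levels are given as CPM with trimmed mean of M values (TMM) scaling, and levels of different genes are compared only per kilobase of the gene length in the table. DMSO replicate 5 stood apart from the other libraries. The summed level of 9 beta cell markers, including Ins1, Ins2 and Iapp, was 26.4 CPM there, with 4880 to 17904 CPM in the other 6 DMSO libraries and 1300 to 16439 CPM in the adjudin libraries. The lowest adjudin library, at 1300 CPM, was replicate 5, of the same pair, and the next lowest had 5073 CPM. Both libraries of pair 5 were thus low in beta cell markers. Markers of other cell types were also present in these islets: 10 mesenchymal markers summed to 19865 to 36843 CPM with DMSO and 19736 to 33634 CPM with adjudin, and 8 endothelial markers to 214 to 797 CPM and 250 to 764 CPM. In whole islets, fewer cells of a type and less RNA per cell cannot be told apart. Results are given below with and without DMSO replicates 5 and 7 where a count changed.

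Before any comparison, the DMSO libraries show which members P0 islets express. The mean level was at least 1 CPM for 62 of the 67 members, at least 10 CPM for 54 and at least 100 CPM for 10. Per kilobase, the highest member was Unc5b, a netrin receptor, at 64.2 ± 8.5 CPM (SD, n=7). It was followed by the plexins Plxnb2, a receptor for class 4 semaphorins, at 45.2 ± 8.2 CPM and Plxnd1, a receptor of endothelial cells, at 38.3 ± 8.6 CPM, and these plexin levels lay within 1 SD of each other. Efnb1 reached 25.5 ± 3.9 CPM per kilobase and the receptor Ephb4, known from veins, 25.5 ± 7.2 CPM. Slit3 had 22.9 ± 6.5 CPM per kilobase. The 3 most abundant members thus belonged to the receptors of netrins and semaphorins, and the next 3 were an ephrin, an Eph receptor and a Slit. At the lower end, Robo3 had 0.084 ± 0.070 CPM per kilobase, Epha10 0.091 ± 0.114, Unc5d 0.092 ± 0.050 and Epha6 0.098 ± 0.040, which are levels of few counts in most libraries, and 1 DMSO library held no Epha10 count.

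**Figure D1:**
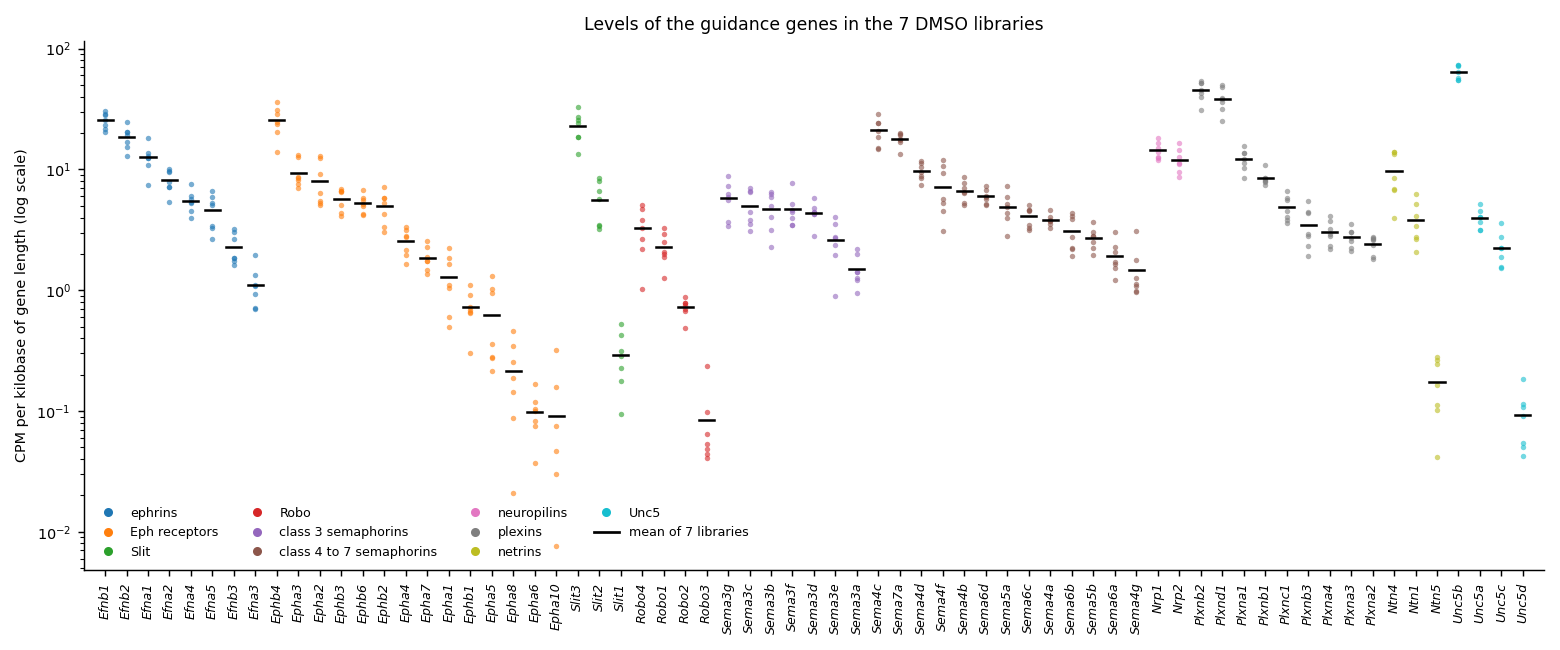
Level of each of the 67 guidance genes in the 7 DMSO libraries, as CPM per kilobase of gene length on a log axis. Each point is 1 library, each black line the mean of 7 libraries, colours mark the 10 role groups, and genes are ordered by mean within a group. The 1 DMSO library with no Epha10 count lies off the axis. Unc5b stands highest at 64.2 CPM per kilobase and Robo3 lowest at 0.084.

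Within families the levels were uneven. Ephrins spanned 1.11 CPM per kilobase for Efna3 to 25.5 for Efnb1, with Efnb2, the ligand of arterial cells, at 18.5 and Efna1 at 12.6. Among the 14 Eph receptors the median was 2.21 CPM per kilobase, with Ephb4 well above Epha3 at 9.38 and Epha2 at 8.09. Slit3 exceeded Slit2 at 5.57 and Slit1 at 0.293 CPM per kilobase, whereas the 4 Robo receptors spanned 0.084 to 3.25, with Robo4, a receptor of endothelial cells, highest. Before division by gene length, Slit2 and Slit3 were close, at 81.6 to 217 CPM and 81.0 to 199 CPM with DMSO. Their difference per kilobase thus rests on the gene lengths given with the counts. The 7 class 3 semaphorins lay closer together, from 1.49 CPM per kilobase for Sema3a to 5.84 for Sema3g. The 13 semaphorins of classes 4 to 7, which are membrane-bound, ran from 1.47 for Sema4g to 21.01 for Sema4c, with the glycolipid-anchored Sema7a at 17.8. Both neuropilins were well expressed, with 14.4 ± 2.4 CPM per kilobase for Nrp1 and 12.02 ± 2.76 for Nrp2. Ntn4, a netrin of basement membranes, had 9.62 ± 4.13 CPM per kilobase, Ntn1 3.80 ± 1.53 and Ntn5 0.173 ± 0.092. Dcc, the attractive netrin receptor, had 0.337 ± 0.295 CPM in DMSO libraries, too low to test. Neogenin (Neo1), a relative of Dcc, had 118 ± 28 CPM with DMSO and 118 ± 29 CPM with adjudin.

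DMSO libraries differed among themselves. The SD of log2 CPM between the 7 DMSO libraries had a median of 0.41 over the 66 tested members and of 0.30 over all 18732 genes tested. The steadiest members were Sema4a with an SD of 0.15, Plxnb1 with 0.18 and Unc5b with 0.19. Unc5b ranged only from 345 to 460 CPM with DMSO. Epha5 was among the least steady, with an SD of 1.08. Its DMSO values were 4.66, 3.57, 4.60, 17.0, 6.00, 15.8 and 22.01 CPM in replicates 1 to 7, so replicates 4, 6 and 7 stood above the other 4. Robo4 spanned 5.40 to 26.7 CPM in the same libraries, with DMSO replicate 7 lowest and replicate 5 highest. Summed over all members, guidance transcripts took 2879 to 4227 CPM with DMSO and 2936 to 4033 CPM with adjudin, and the adjudin range lay inside the DMSO range.

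After adjudin, no guidance gene passed the adjusted threshold in fits of treatment alone on all libraries. With the replicate number as a block, DESeq2 on all libraries called 1, Nrp1, beside 0.572% of all genes with an adjusted p. By edgeR's quasi-likelihood test with treatment alone, 0 of 66 members had an adjusted p under 0.05, where 1 of 18732 genes (0.00534%) did, and the adjusted p of every member was 0.999857. At an unadjusted p under 0.05 there were 2 members (3.03%), beside 2.26% of all genes tested, so the share of members was near the background. They were Sema3c, with higher values after adjudin, and Nrp1, with lower values. Fold changes were above 0 for 27 members and below 0 for 39, with a median log2 fold change of -0.033, beside -0.013 over all genes tested and 54.7% of those below 0. For 33 members the fold change was under 0.1 on the log2 scale in either direction, and for 5 it was over 0.3. No member's groups were free of overlap, where 0.032% of all genes had groups that did not overlap. Without DMSO replicate 5 the count at an unadjusted p under 0.05 was again 2, beside 644 of 18987 genes tested. Without DMSO replicate 7 it was 4, beside 592 of 18883 genes tested.

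**Figure D2:**
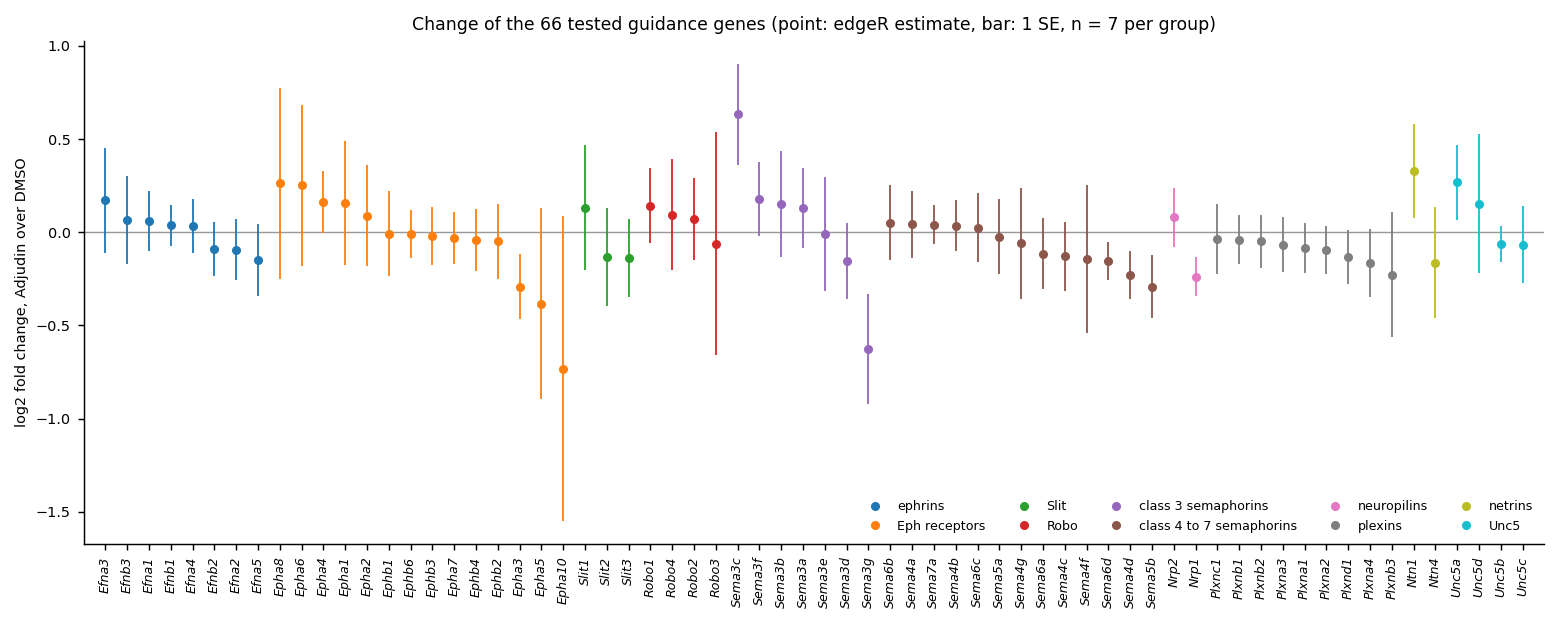
Log2 fold change of adjudin over DMSO for the 66 tested guidance genes, by edgeR. Points are estimates, bars extend 1 SE to each side (n=7 per group) and colours mark role groups. Sema3c at 0.63 and Sema3g at -0.62 lie farthest from 0 among genes with bars that do not reach it, the estimate of Epha10 at -0.73 has an SE of 0.82, and all 9 plexins lie below 0, which without single libraries or pairs held for as few as 7 of the 9.

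Taking batch into account widened the count without adding a call in edgeR. With the replicate number as a block, edgeR gave 6 members at an unadjusted p under 0.05 (9.09%, beside 5.63% of all genes) and 0 past the adjusted threshold, where 0 of all genes passed. These were Sema3c, with higher values, and Epha3, Sema3g, Sema4c, Sema6d and Nrp1, with lower values. DESeq2 without the block gave 3 members (4.55%, beside 2.81%) and 0 past its adjusted threshold, which 0.016% of all genes passed. DESeq2 with the block gave 7 members at an unadjusted p under 0.05 (10.6%, beside 6.5% of all genes), and 1 member, Nrp1, passed its adjusted threshold, beside 0.572% of genes with an adjusted p and 0.0544% that passed with lower values. Limma-voom gave 2 members without the block, beside 2.55% of all genes, and 6 with it, beside 6.0%, and none passed the adjusted threshold. The 7 members of DESeq2 with the block were Sema3c and Unc5a, with higher values, and Epha3, Sema3g, Sema4c, Sema4d and Nrp1, with lower values. The 6 of limma-voom with the block were the same genes without Sema4d.

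Fold changes were small for the ephrins and more varied for their receptors, and no gene of either group passed an adjusted threshold with all libraries. Of 8 ephrins, 5 had fold changes above 0 and 3 below, between -0.15 and 0.17 on the log2 scale, and edgeR gave 0 of them an unadjusted p under 0.05. Efnb1 had 70.0, 88.8 and 105 CPM with DMSO (lowest, median and highest of 7 libraries) and 72.1, 90.04 and 108 CPM with adjudin. Efnb2 had 88.6, 132 and 168 CPM with DMSO and 89.7, 121 and 144 CPM with adjudin. For Efnb1 most of the range was shared between groups, the adjudin range of Efnb2 lay inside its DMSO range, and the log2 fold changes were 0.038 ± 0.110 (SE) and -0.091 ± 0.144. The 14 Eph receptors had 5 fold changes above 0 and 9 below, with a median of -0.015 on the log2 scale and 7 of the 14 under 0.1 in either direction. They ran from -0.73 ± 0.82 for Epha10, -0.38 ± 0.51 for Epha5 and -0.29 ± 0.17 for Epha3 to 0.26 ± 0.51 for Epha8.

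Ephb4 gave 65.1, 114 and 167 CPM with DMSO and 96.8, 111 and 142 CPM with adjudin, and its adjudin libraries lay inside the DMSO range. Epha4, a receptor for both ephrin classes, had 13.2, 22.3 and 27.1 CPM with DMSO and 15.1, 23.5 and 28.8 CPM with adjudin (log2 fold change 0.16 ± 0.17). Epha3, a receptor of ephrin-A ligands, gave 60.7, 73.6 and 113 CPM with DMSO and 45.3, 64.1 and 91.6 CPM with adjudin. Its groups overlapped between 60.7 and 91.6 CPM, and Epha3 was lower with adjudin in 6 of 7 pairs. The Epha3 log2 fold change was -0.29 ± 0.17 (edgeR, unadjusted p = 0.113). With the block, edgeR gave Epha3 an unadjusted p of 0.0284. DESeq2 with the block gave Epha3 an adjusted p of 0.520 with all pairs, and leaving out each pair in turn gave 0.0222 (without pair 5) to 0.999963 (without pair 4). Pair 5 was the pair in which Epha3 was higher with adjudin, so the value without it is a description that depends on dropping the opposing pair.

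The fold changes of Slit and Robo genes were small beside their errors. Slit3 had 81.0, 146 and 199 CPM with DMSO and 79.7, 147 and 164 CPM with adjudin, with nearly equal medians and a log2 fold change of -0.14 ± 0.21, which ran from -0.24 to -0.023 when single libraries or pairs were left out. Robo4 gave 5.40, 17.4 and 26.7 CPM with DMSO and 12.3, 17.5 and 31.7 CPM with adjudin, and its log2 fold change was 0.095 ± 0.30. The low end of the DMSO range was DMSO replicate 7, and without that library the Robo4 estimate was -0.050. Of the 7 Slit and Robo genes, 4 had estimates above 0 and 3 below, and 0 had an unadjusted p under 0.05.

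Class 3 semaphorins included both members with the widest shifts among well-measured genes. Sema3c, a secreted semaphorin that acts through neuropilins and Plxnd1, had 22.01, 31.4 and 50.5 CPM with DMSO and 19.8, 50.7 and 82.7 CPM with adjudin. Adjudin replicates 1 to 4 lay above every DMSO library, replicate 1 only just, whereas adjudin replicate 6 was the lowest library of either group. The Sema3c log2 fold change was 0.63 ± 0.27 by edgeR (unadjusted p = 0.0343, adjusted p = 0.999857). Within pairs 1 to 7 the Sema3c differences were 0.69, 0.80, 1.55, 1.29, 0.062, -0.15 and -0.14 on the log2 scale, so 4 pairs carried the difference and 3 lay near 0. An exact sign-flip test over the 7 pairs gave p = 0.109 for Sema3c. Without pair 3 its edgeR estimate was 0.50 with an unadjusted p of 0.115, and without pair 6 it was 0.70 with an unadjusted p of 0.00437. In pair 6 Sema3c was lower with adjudin, so the value without it depends on dropping an opposing pair and is given as a description.

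Sums of the ductal, endocrine, acinar and delta cell markers were each higher with adjudin in 6 of 7 pairs. The sum of 7 ductal markers was 235 to 1324 CPM with DMSO and 252 to 1343 CPM with adjudin, none of the 7 was at 0 in every library, and the sum differed by 0.19, 0.23, 1.17, 0.90, -0.56, 0.10 and 0.90 on the log2 scale in pairs 1 to 7. Pairs 3 and 4 had wide differences in both Sema3c and the ductal sum, while pair 7 had one in the ductal sum alone. The ductal score, the mean log2 CPM of the 7 markers, differed from the sum in pair 6. There it was lower with adjudin, at 3.05 beside 3.35 with DMSO, as Sema3c was. In the other pairs its direction was that of the sum. Across adjudin libraries, Sema3c and the ductal score had a Pearson's r of 0.92 (exact permutation p = 0.0157, adjusted p = 0.593 over 660 relations) and a Spearman's coefficient of 0.68 (p = 0.110), and r was 0.48 without the 2 libraries farthest from the median score, so the relation rested on those 2. Across DMSO libraries r was 0.64 (exact permutation p = 0.145, adjusted p = 0.639) and Spearman's coefficient 0.54 (p = 0.236), with an r of 0.19 without 2 libraries. The sum of 12 endocrine markers, all 12 with fold changes above 0, differed by 0.59, 0.18, 1.11, 0.50, 0.29, 0.82 and -0.23 in the same pairs, so it was higher in pair 6 and lower in pair 7, where Sema3c was slightly lower in both. The acinar sum was lower in pair 3 alone and the delta cell sum in pair 5 alone. Against the endocrine score, r of Sema3c was -0.28 with DMSO (exact permutation p = 0.613, adjusted p = 0.920) and 0.32 with adjudin (exact permutation p = 0.457, adjusted p = 0.875). The part of these cell types in the Sema3c values was not tested.

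Sema3g, a class 3 semaphorin of endothelial cells, showed the opposite sign. It had 15.3, 26.9 and 39.9 CPM with DMSO and 8.30, 16.7 and 29.6 CPM with adjudin, and adjudin replicates 3, 4 and 7 lay below every DMSO library. The Sema3g log2 fold change was -0.62 ± 0.30 by edgeR (unadjusted p = 0.0514), and the fit with the block gave -0.72 ± 0.27 by edgeR (unadjusted p = 0.028). Its differences in pairs 1 to 7 were 0.84, 0.059, -1.60, -1.13, -0.95, -1.25 and -0.88, so 5 pairs were lower by 0.88 or more and pair 1 went the other way. The exact sign-flip test gave p = 0.0781. DESeq2 with the block gave Sema3g an adjusted p of 0.234 with all pairs, and leaving out each pair in turn gave 0.00138 (without pair 1) to 0.839 (without pair 3), with 6 of 7 above 0.05. The value without pair 1 depends on dropping the pair with the opposite sign and is given as a description. The sum of 8 endothelial markers, none at 0 in every library, differed by 0.18, 0.18, 0.47, -0.85, -0.84, -0.65 and 0.99 in the same pairs. Thus it was lower in pairs 4, 5 and 6, where Sema3g was lower too, but higher in pairs 3 and 7, where Sema3g was also lower. The part of endothelial cells in the Sema3g values was not tested.

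The other class 3 semaphorins stayed nearer their DMSO levels. Sema3f, which acts mainly through Nrp2, had 18.0, 22.9 and 40.2 CPM with DMSO and 17.6, 26.0 and 38.8 CPM with adjudin (log2 fold change 0.18 ± 0.20). Sema3b gave 10.8, 23.8 and 31.3 CPM with DMSO and 12.9, 23.1 and 48.7 CPM with adjudin, with overlapping groups and a log2 fold change of 0.15 ± 0.29. In the class as a whole, 4 estimates were above 0 and 3 below.

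Among the 13 semaphorins of classes 4 to 7, 5 estimates were above 0 and 8 below, from -0.29 to 0.052, and edgeR without the block gave 0 of them an unadjusted p under 0.05. Sema4d, the ligand of Plxnb1, had 56.6, 72.5 and 89.8 CPM with DMSO and 43.7, 68.2 and 74.1 CPM with adjudin. Its values were lower with adjudin in 5 of 7 pairs, the groups overlapped, and the log2 fold change was -0.23 ± 0.13 (edgeR, unadjusted p = 0.0948). Of the fits with the block on all libraries, only DESeq2 gave Sema4d an unadjusted p under 0.05. Sema5b, a transmembrane semaphorin, gave 13.98, 19.9 and 26.1 CPM with DMSO and 10.3, 14.6 and 20.9 CPM with adjudin, with a log2 fold change of -0.29 ± 0.17 (edgeR, unadjusted p = 0.106). Sema4c, a ligand of Plxnb2, ranged from 67.8 to 133 CPM with DMSO and from 58.4 to 134 CPM with adjudin (log2 fold change -0.13 ± 0.18, and -0.26 to -0.036 when single libraries or pairs were left out). With the block its edgeR unadjusted p was 0.0330, and its exons share 334 bases with a gene on the other strand, D430040D24Rik, that had 2330 counts in all beside 47983 for Sema4c. Sema7a, which binds Plxnc1 and integrins, had medians of 58.5 CPM with DMSO and 56.1 CPM with adjudin and a log2 fold change of 0.041 ± 0.106.

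Nrp1, the co-receptor for class 3 semaphorins and for vascular endothelial growth factor, was the member whose direction was the same in every pair. The gene lies on the plus strand of chromosome 8 (start 128358604, end 128503363, GRCm38). It had 117, 137 and 179 CPM with DMSO and 101, 121 and 142 CPM with adjudin. Adjudin replicates 1, 2 and 7 lay below every DMSO library, replicate 7 only just, and the other adjudin libraries lay in the lower part of the DMSO range. The groups overlapped between 117 and 142 CPM, and the lowest libraries of both groups were replicates 2. By edgeR its log2 fold change was -0.24 ± 0.10 (unadjusted p = 0.0367, adjusted p = 0.999857), a fold of 0.847. Pair differences were -0.19, -0.21, -0.29, -0.40, -0.10, -0.33 and -0.084 on the log2 scale in pairs 1 to 7.

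No other member was lower, and none was higher, in all 7 pairs, where 0.854% and 0.945% of all genes were. The exact sign-flip test gave Nrp1 p = 0.0156, the smallest 7 pairs can give, which 337 genes reached, and its adjusted value over all genes was 0.843. DESeq2 with the block estimated it at -0.23 ± 0.06 with an adjusted p of 0.0443, the only call of a guidance gene with all 14 libraries. That call depended on the pairs and on the filter: leaving out each pair in turn gave adjusted p values from 0.0274 (without pair 7) to 0.381 (without pair 3), with 5 of 7 above 0.05, and fitting all genes with a count gave 0.0820. With library totals in place of TMM scaling, Nrp1 was lower in 6 of 7 pairs.

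Several marker sums moved with Nrp1 in most pairs. The sum of 6 macrophage markers was 439 to 726 CPM with DMSO and 281 to 580 CPM with adjudin and was lower in 6 of 7 pairs, the exception being pair 5. The sum of 8 Schwann and neural markers was 248 to 654 CPM and 147 to 881 CPM and was lower in 6 pairs, all but pair 4. The mesenchymal sum was lower in 5 of 7 pairs and the endothelial sum in 3. The mean log2 CPM of the same markers differed in direction from the sum in 2 places. For the Schwann and neural markers it was higher with adjudin in pair 3, at 4.05 beside 3.96 with DMSO. For the mesenchymal markers it was 9.41 with both treatments in pair 2. None of these markers was at 0 in every library, and their part in the Nrp1 values was not tested.

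Nrp2, the co-receptor preferred by Sema3f, had a median of 133 CPM with DMSO and 157 CPM with adjudin and a log2 fold change of 0.080 ± 0.158. Estimates of the 9 plexins, the signalling receptors of semaphorins, were all below 0, from -0.23 to -0.035 with a median of -0.084, and edgeR gave 0 of the 9 an unadjusted p under 0.05. They were also 9 of 9 below 0 with the other scalings tried on all libraries, and 7 to 9 of 9 when single libraries or pairs were left out. Plxnb2 had 240, 350 and 417 CPM with DMSO and 276, 290 and 458 CPM with adjudin, so its median was lower but its highest library was an adjudin library (log2 fold change -0.049 ± 0.144). Plxnd1 gave 182, 281 and 364 CPM with DMSO and 197, 266 and 315 CPM with adjudin (log2 fold change -0.13 ± 0.15). The widest plexin estimate, that of Plxnb3 at -0.23, had an SE of 0.33.

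Netrins and Unc5 receptors had wide errors or little difference. Ntn1, the best-known secreted netrin, had 13.1, 21.2 and 39.6 CPM with DMSO and 19.1, 28.3 and 43.8 CPM with adjudin, and its log2 fold change was 0.33 ± 0.25 (edgeR, unadjusted p = 0.211). Within pairs the Ntn1 differences ran from -1.05 to 1.74, and the Ntn1 estimate ran from 0.12 (without pair 4) to 0.58 (without pair 5). Ntn4 had 14.9, 31.5 and 52.6 CPM with DMSO and 13.7, 29.2 and 44.7 CPM with adjudin, with a log2 fold change of -0.16 ± 0.30. Ntn5 held between 3 and 38 counts in each DMSO library and between 4 and 25 in each adjudin library, too few to test.

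Unc5a, a netrin receptor that can signal for cell death without ligand, had 13.1, 16.7 and 21.5 CPM with DMSO and 12.9, 18.1 and 33.9 CPM with adjudin. It was higher with adjudin in 6 of 7 pairs, by 0.65 in pair 3 and 0.48 in pair 4 and by 0.22 or less in the others, and its log2 fold change was 0.27 ± 0.20 (edgeR, unadjusted p = 0.203). Without adjudin replicate 3 the Unc5a estimate was 0.094. With the block, DESeq2 and limma-voom gave Unc5a an unadjusted p under 0.05, whereas edgeR did not. Its exons share 34 bases with Hk3 on the other strand, which had 14034 counts in all beside 8770 for Unc5a. Unc5b, the most abundant member per kilobase, had 345, 398 and 460 CPM with DMSO and 349, 379 and 477 CPM with adjudin. Its groups shared most of their range, and the log2 fold change was -0.064 ± 0.096.

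**Figure D3:**
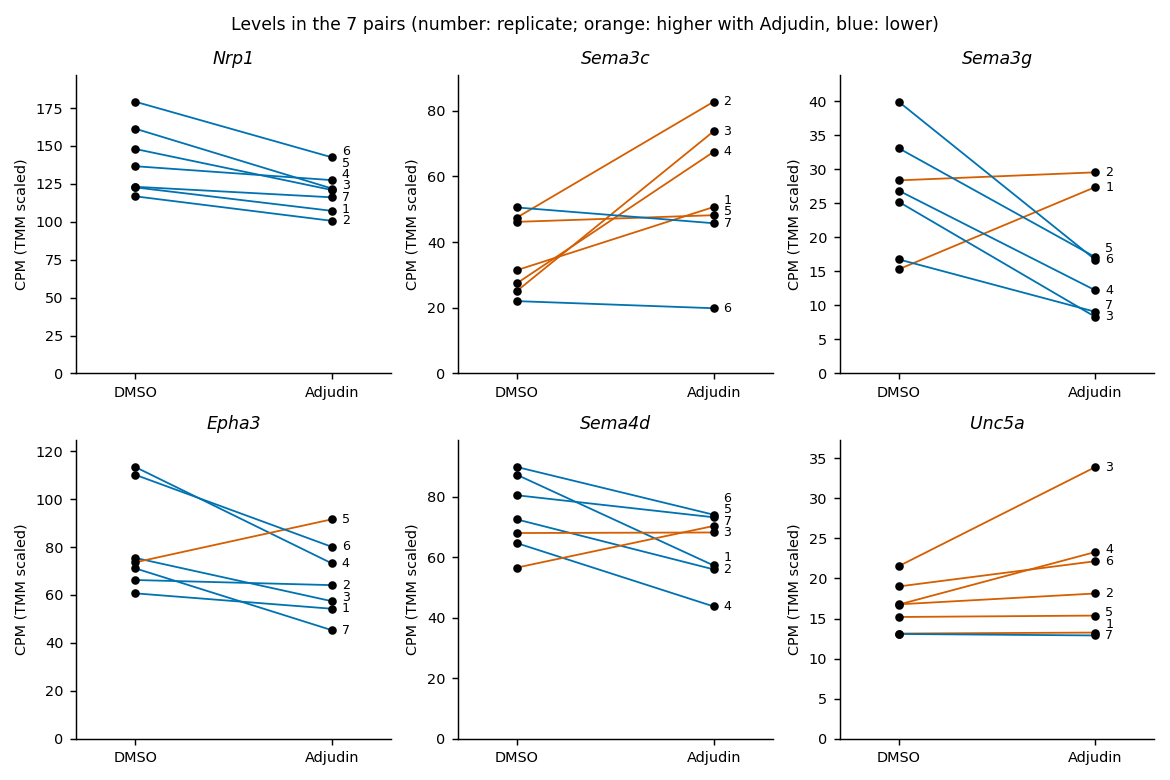
CPM (TMM scaled) of 6 guidance genes in the DMSO and adjudin library of each pair. Points are libraries, lines join the pair, numbers give the replicate, orange lines mark pairs with the higher value with adjudin and blue lines those with the lower. Nrp1 is lower in 7 of 7 pairs, Epha3 in 6, Sema3g and Sema4d in 5, while Sema3c is higher in 5 and Unc5a in 6.

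Counted over pairs, 4 members were lower in at least 6 of 7 pairs (Nrp1, Epha3, Sema3d and Sema6d) and 1 was higher (Unc5a). Over all genes tested, 1292 of 18732 were lower and 1167 higher in at least 6 of 7 pairs. Sema3d, a secreted semaphorin, and Sema6d, a transmembrane one, had log2 fold changes of -0.16 ± 0.20 and -0.15 ± 0.10.

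Partners that carry these signals onward gave no call with all libraries. Of 64 co-receptors, adaptors and effectors listed for the 4 systems, 63 were tested and 0 passed the adjusted threshold of edgeR. Estimates were above 0 for 21 and below 0 for 42, with a median of -0.042. Over all genes tested, 54.7% of estimates were below 0 and the median was -0.013. At an unadjusted p under 0.05, 0 had higher and 3 had lower values (beside 1.25% and 1.01% of all genes): Flrt1, of a family of membrane proteins that bind Unc5 receptors, at -0.50 ± 0.20, Mical1, a flavoenzyme that acts on actin below plexins, at -0.22 ± 0.09, and Srgap2, a Slit-Robo GTPase-activating protein, at -0.17 ± 0.07. Srgap2, Farp2 and Ntng1, 3 of the 63 partners, were lower in 7 of 7 pairs, beside 0.854% of all genes. Farp2, an exchange factor bound to plexins, had a log2 fold change of -0.39 ± 0.20 and the membrane-anchored netrin-like Ntng1 -0.41 ± 0.33.

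Spread between libraries of 1 treatment was set beside cell type markers. For each tested member, its log2 CPM was correlated with the mean log2 CPM of each of 5 marker lists across the 7 libraries of each treatment, with exact permutation over pairings, which made 660 relations. None passed adjustment (smallest adjusted p = 0.131), and 74 (11.2%) had an unadjusted p under 0.05, beside 7.49% over all genes tested. Against the endothelial score 18 of 66 members (27.3%) had an unadjusted p under 0.05 with DMSO, near the 23.5% of all genes, and 12 (18.2%) did with adjudin, beside 6.18% of all genes. For the Schwann and neural score the numbers were 1 (1.52%, beside 3.51%) and 15 (22.7%, beside 10.2%), and whether the treatments differ in this was not tested. With the same sign in both treatments there were 4 members for the endothelial score (Ephb1, Ntn4, Robo4 and Sema6b, beside 1.4% of all genes), 3 for the ductal score (Epha1, Epha2 and Sema3f, beside 1.9%) and 0 for the endocrine, mesenchymal and Schwann scores.

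Robo4 had the highest r with the endothelial score in DMSO libraries and Ntn4 in adjudin libraries. For Robo4 with DMSO, Pearson's r was 0.98 (exact permutation p = 0.000595, adjusted p = 0.131) and Spearman's coefficient 0.96 (p = 0.00278), and r was 0.96 without the 2 libraries farthest from the median score. In adjudin libraries r was 0.78 (exact permutation p = 0.0347, adjusted p = 0.370), Spearman's coefficient 0.89 (p = 0.0123) and r without those 2 libraries 0.69. For Ntn4 the endothelial r was 0.89 with DMSO (exact permutation p = 0.00734, adjusted p = 0.184), Spearman's coefficient 0.82 (p = 0.0341) and r without 2 libraries 0.73, and with adjudin r was 0.95 (p = 0.00496, adjusted p = 0.155), Spearman's coefficient 0.89 (p = 0.0123) and r without 2 libraries 0.79. Against the ductal score, r fell below 0.5 without the 2 farthest libraries for all 3 genes with adjudin and for Epha2 with DMSO. Epha2, a receptor of epithelia, had an r of 0.83 with the ductal score in DMSO libraries (exact permutation p = 0.0236, adjusted p = 0.340), with Spearman's coefficient 0.46 (p = 0.302) and an r of 0.19 without the 2 farthest libraries, so that relation rested on those 2. With adjudin, Epha2 had an r of 0.84 (exact permutation p = 0.00873, adjusted p = 0.199), a Spearman's coefficient of 0.86 (p = 0.0238) and an r of 0.49 without 2 libraries. For Sema3f the ductal r was 0.78 with DMSO (exact permutation p = 0.0327, adjusted p = 0.370), with a Spearman's coefficient of 0.71 (p = 0.0881) and 0.62 for r without 2 libraries. With adjudin it was 0.81 (exact permutation p = 0.0103, adjusted p = 0.213), with a Spearman's coefficient of 0.86 (p = 0.0238) and 0.49 for r without 2 libraries. For Epha1 the ductal r was 0.85 with DMSO (exact permutation p = 0.0198, adjusted p = 0.326) and 0.85 without 2 libraries, and with adjudin 0.87 (exact permutation p = 0.0438, adjusted p = 0.419) and 0.12, with Spearman's coefficients of 0.89 (p = 0.0123) and 0.46 (p = 0.302). Epha1 overlaps the exons of Zyx on the other strand by 236 bases, and Zyx had 78769 counts in all beside 2628 for Epha1, so Epha1 values are uncertain.

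**Figure D4:**
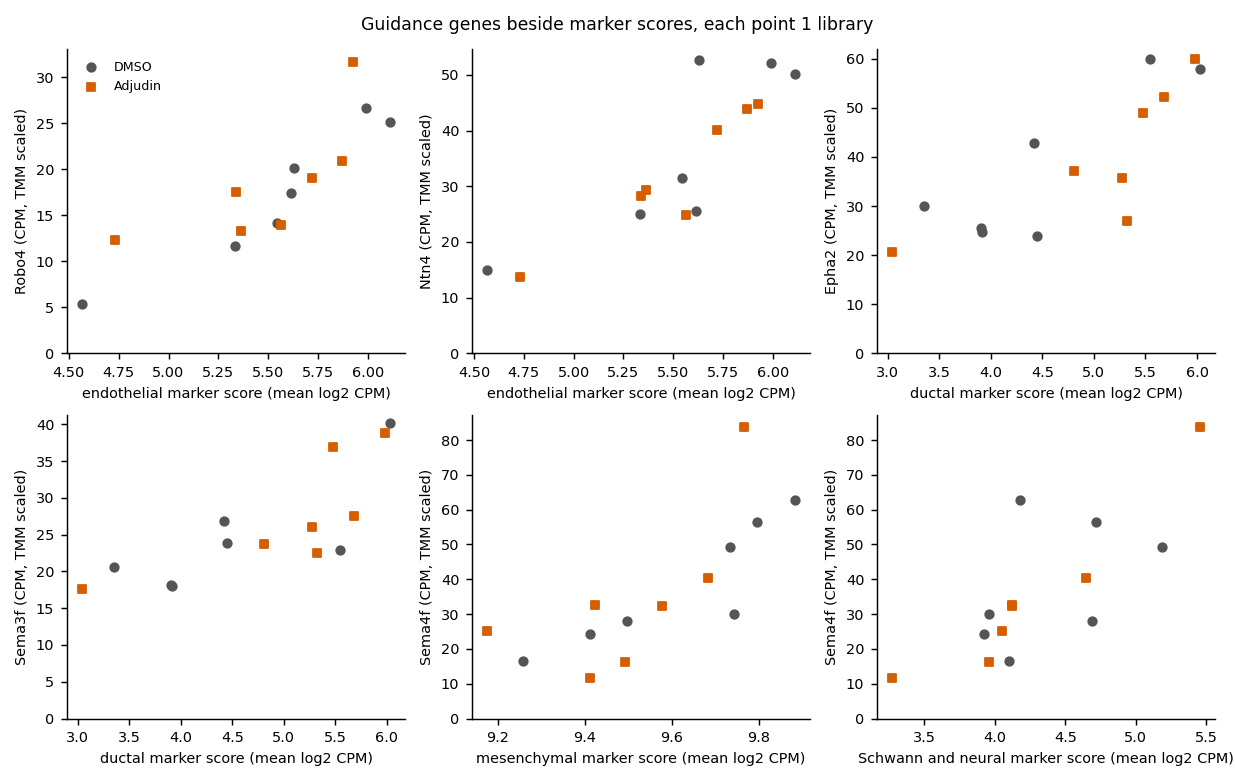
CPM (TMM scaled) of guidance genes against the mean log2 CPM of a marker list, 1 point per library, circles for DMSO and squares for adjudin; the pairs of gene and list were chosen after their values were seen. Robo4 and Ntn4 run with the endothelial score in both treatments and Epha2 and Sema3f with the ductal score, but no relation passed adjustment. The ductal relations of Epha2 in both treatments and of Sema3f with adjudin weakened without the 2 libraries farthest from the median score. The highest Sema4f value, 83.7 CPM, is adjudin replicate 4, which also has the highest Schwann and neural score.

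Sema4f, a membrane semaphorin, was set against the mesenchymal and the Schwann and neural score. Against the mesenchymal score in DMSO libraries r was 0.93 (exact permutation p = 0.00337, adjusted p = 0.155), Spearman's coefficient 0.96 (p = 0.00278) and r without 2 libraries 0.81. With adjudin the mesenchymal r was 0.63 (exact permutation p = 0.119, adjusted p = 0.601), Spearman's coefficient 0.75 (p = 0.0663) and r without 2 libraries 0.67, of the same sign. Against the Schwann and neural score in adjudin libraries r was 0.96 (exact permutation p = 0.00119, adjusted p = 0.153), Spearman's coefficient 0.96 (p = 0.00278) and r without 2 libraries 0.77, and in DMSO libraries r was 0.49 (exact permutation p = 0.260, adjusted p = 0.789), Spearman's coefficient 0.54 (p = 0.236) and r without 2 libraries 0.11. Its values were 16.4, 30.0 and 62.8 CPM with DMSO and 11.7, 32.2 and 83.7 CPM with adjudin, lower with adjudin in 5 of 7 pairs. The difference between its relations in the 2 treatments was not tested. Sema4c and Efna2 had a higher mesenchymal r than Sema4f with DMSO, at 0.96 and 0.95, and 0.56 and 0.51 with adjudin. Against the mesenchymal score, 8 members (12.1%, beside 6.2% of all genes) had an unadjusted p under 0.05 by exact permutation with DMSO. With adjudin 5 did (7.58%, beside 6.35%).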

How the data were processed

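RNA-seq libraries were made from P0 mouse islets, 7 with DMSO and 7 with adjudin. Per the labels and the study's methods, poly(A) RNA was sequenced as paired reads, the authors used HISAT2 2.0.5 for alignment to mm10 (GRCm38) and featureCounts 1.5.0-p3 for counting, and the deposited values are raw counts per gene. Which annotation, strandedness option and handling of multi-mapped reads they chose is not given in the sources used here. Other columns of the deposited table give gene length and annotation. In the GENCODE M21 annotation, 17 of 67 members shared exon bases with another gene, so its reads may affect their counts. Use of strand could separate such reads only for genes on opposite strands, and Nrp1, Sema4a and Plxnc1 overlap a gene on the same strand. Those genes, Mir1903, Mir7011 and Gm48718, had 0, 0 and 25 counts in all, beside 65140, 10407 and 19561 for the members.

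Counts were tested with edgeR 4.0.16 (TMM, filterByExpr with a minimum count of 10, robust quasi-likelihood test, treatment alone), with Benjamini-Hochberg adjustment over 18732 genes, which held 99.86% of counts. Alternatives were the replicate number as a block, DESeq2 1.42.0, limma-voom (limma 3.58.1), other scalings and filters, and leaving out each library or pair. Within pairs, an exact two-sided sign-flip test was run on differences of log2 CPM (prior count 2). Exact two-sided permutation was used for correlations, and for the same correlations over all genes tested, as a background. The edgeR code was tested on simulated data. R 4.3.3 and Python 3.11.15 were used.

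Replicate numbers pair the libraries, since the labels give both libraries of a number 1 batch. Measured from their group means, same-numbered libraries deviated with correlations of -0.14 to 0.45 (mean 0.25, 7 pairs), and libraries with other numbers with -0.39 to 0.27 (mean -0.041). The labels name no separate animals, and the study's methods describe each sample as a pool of pups.

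Members, marker lists and partner lists were chosen with earlier results of these data known. Genes named with values were the most abundant per kilobase in each role group, the 5 per direction with the smallest unadjusted p, any past an adjusted threshold with all libraries, and any of 1 direction in 7 of 7 pairs. Sema4f, Epha5, Epha2, Nrp2, Sema3d and Sema6d were chosen after their values were seen. The Schwann and neural, endothelial and ductal scores and the DESeq2 fits with the block that drop a filter or a pair were also added after seeing the data. For the endocrine and mesenchymal scores alone, 264 relations were computed, 0 passed adjustment (smallest adjusted p = 0.105) and 16 (6.06%) had an unadjusted p under 0.05. Acinar markers (10) summed to 13.1 to 287 CPM with DMSO and 32.9 to 274 CPM with adjudin, alpha cell markers (6) to 79.8 to 1755 CPM and 181 to 2446 CPM, delta cell markers (3) to 118 to 406 CPM and 76.8 to 552 CPM, endocrine markers (12) to 139 to 1674 CPM and 171 to 3105 CPM, and red cell markers (4) to 1.89 to 220 CPM and 2.76 to 242 CPM.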

Additional observations from a re-analysis of the deposited data

Results flagged for a closer look

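Of 44 groups of 7 libraries examined (22 named genes in each treatment), 2 held a library far from the others, where chance alone gives about 1 in 20 groups. Sema3f was 40.2 CPM in DMSO replicate 5, above the next highest DMSO library at 26.9 CPM. That library is also the one with almost no beta cell markers, and it had the highest ductal sum of the DMSO libraries, 1324 CPM. Unc5b was 477 CPM in adjudin replicate 6, above the next highest adjudin library at 388 CPM. Without DMSO replicate 5 the Sema3f log2 fold change was 0.34, beside 0.18 with it, and without adjudin replicate 6 that of Unc5b was -0.12, beside -0.064.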

How the results depend on the processing

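The 22 named genes were refitted under 39 alternatives each, 858 values in all. The sign changed in 28 values, all of 9 genes with fold changes near 0, and 13 genes kept 1 sign. The cause of a changed call was not tested. Each value rests on 6 or 7 libraries a group. Of them, 5 passed an adjusted p of 0.05, all by DESeq2 with the replicate block and 4 of them on 6 pairs.

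Members past the adjusted threshold were 0 under edgeR and limma-voom and without any library or pair in edgeR, and 1 under DESeq2 with the replicate block. In that block fit they were 1, 0, 0, 0, 2, 0 and 1 without pairs 1 to 7, and partners were 1 without pair 4 or 5 and 0 otherwise. Over all genes, 105 passed with all pairs, and 100, 70, 63, 60, 216, 111 and 118 without pairs 1 to 7.

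Members at an unadjusted p under 0.05 were 2 in edgeR. With the replicate block they were 6 (edgeR and limma-voom), 7 (DESeq2), 5 (DESeq2 without a filter) and, without pairs 1 to 7 in DESeq2, 7, 5, 7, 6, 8, 5 and 8. Over all genes, the DESeq2 block fits without pairs 1 to 7 gave 1128, 980, 891, 940, 1454, 1097 and 1389. Those fits tested 18645 to 18848 genes. In edgeR, members at that threshold were 1 with library totals and 0 to 5 when a library or pair was left out. They were 0 without DMSO replicate 3, 4 or 6, adjudin replicate 3, or pair 3 or 4, and 5 without pair 5. Over all genes, edgeR gave 315 to 644 when a library or pair was left out, with 589 of 18816 without pair 5. Members of 1 direction in every pair were 1, but 0 with library totals, 2 without a filter (Nrp1 and Unc5a) and 1 to 3 without a pair.

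With the replicate block in DESeq2, the log2 fold change of Ephb4 was 0.00101 (0.00201 without a filter, and 0.043, 0.061 and 0.042 without pairs 4, 5 and 6). Without pair 6 the log2 fold change of Efnb2 was 0.0087 and that of Ntn4 0.023, without pair 7 that of Robo4 was -0.070 and that of Sema7a -0.012, and without pair 3 that of Sema7a was -0.025. Leaving out libraries or pairs in edgeR, the log2 fold change ranged from -0.011 to 0.086 for Efnb1, -0.18 to 9.6e-05 for Efnb2, -0.14 to 0.058 for Ephb4, -0.13 to 0.0060 for Plxnb2, -0.080 to 0.30 for Robo4, -0.094 to 0.26 for Sema3b, -0.026 to 0.096 for Sema7a and -0.12 to 0.00047 for Unc5b. Among genes that kept their sign in edgeR, the range was -0.41 to -0.20 for Epha3, 0.086 to 0.27 for Epha4, 0.12 to 0.58 for Ntn1, -0.31 to -0.0037 for Ntn4, -0.20 to -0.059 for Plxnd1, 0.50 to 0.79 for Sema3c, 0.087 to 0.34 for Sema3f, -0.87 to -0.48 for Sema3g, -0.26 to -0.036 for Sema4c, -0.30 to -0.16 for Sema4d, -0.41 to -0.18 for Sema5b, -0.24 to -0.023 for Slit3, 0.094 to 0.35 for Unc5a and -0.29 to -0.17 for Nrp1.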
